A study of Arabidopsis thaliana with 6 samples.

Results

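The genes described here are 38 protein-coding genes of the chloroplast genome that encode subunits of the photosynthetic apparatus, out of 32948 genes in the table and 133 rows with a plastid locus name. They were taken by locus name, not by any measured value: 13 subunits of photosystem II and the assembly factor psbN, 4 subunits of photosystem I, 3 of the cytochrome b6f complex, 6 of the ATP synthase, 10 of the NADH dehydrogenase-like (NDH) complex, and rbcL, the large subunit of Rubisco. Counts and medians by complex cover these listed genes only, which need not be all the plastid genes of a complex. RNA-seq compared the mutant line cnd1-3 of the thale cress Arabidopsis thaliana (3 libraries) with Col-0, the wild type (3 libraries), both sampled as seedlings, in a study whose title concerns CND1 and the stability of both the nuclear and the plastid genome. The labels give no allele type, age, growth condition or treatment for either genotype, and do not say whether libraries came from plants grown apart, so p-values measure only the spread between these libraries, which may be technical.

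Chloroplasts keep a small genome of bacterial origin. Its photosynthesis genes sit in a few clusters that are transcribed together and then cut into shorter RNAs by processing, chiefly by a bacterial-type RNA polymerase whose sigma factors are encoded in the nucleus. The complexes themselves are mixed: the core subunits that bind the pigments and cofactors come largely from the plastid, while many peripheral subunits come from nuclear genes. Plastid transcripts mostly lack a lasting poly(A) tail, since in chloroplasts a poly(A) tail marks RNA for decay, and these libraries were made with oligo-dT beads. The values below are therefore levels in that selected RNA.

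The deposited unit is FPKM, fragments per kilobase of gene and of library depth. The read number behind each value could be recovered. The reads assigned to genes, inferred from the FPKM values, numbered 22125814 to 23081866 in cnd1-3 libraries and 23290031 to 30455907 in Col-0 libraries. The 38 genes took only 5284 to 5631 of them in cnd1-3 libraries and 5843 to 8726 in Col-0 libraries. The labelled tissue was checked against markers: the green tissue genes RBCS1A and LHCB1.3 were abundant, and the 4 green markers summed to 48384 to 53534 FPKM in cnd1-3 and 52504 to 53508 FPKM in Col-0. LHCB1.5 was listed at 0 in every library. LHCB1.1, a light-harvesting protein gene of the same nearly identical family, fell in cnd1-3, with 1750.2, 1594 and 1253 FPKM, against 2876, 4449.6 and 3382 FPKM in Col-0 (log2 fold change -1.21, SE 0.17, adjusted p = 0.00373 in limma), and reads may be split between such copies. The sum is made up mostly of RBCS1A and LHCB1.3. Of 6 root markers 3 were at 0 in all libraries and the highest value was 0.0992 FPKM, so root transcripts were close to absent although the material is labelled as seedling. The markers' sums ranged from 0.0387 to 0.138 FPKM in cnd1-3 and from 0 to 0.0475 FPKM in Col-0. In bulk RNA, fewer cells of a type and less RNA per cell cannot be told apart.

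A gene was called when its adjusted p in limma was below 0.05 over all 17096 genes that averaged at least 0.5 FPKM, and 36 of the 38 genes entered. Of these 1 passed, psbT (ATCG00690), which rose in cnd1-3, against 3.5% of all tested genes called higher, and 0 passed in the other direction, against 7.59%. It encodes a small membrane subunit at the centre of the photosystem II dimer. Its level was 10.5, 12 and 12.7 FPKM in the cnd1-3 libraries, against 9.01, 8.20 and 5.89 FPKM in the Col-0 libraries. Each cnd1-3 library lay above each Col-0 library. The means were 11.8 ± 1.11 FPKM in cnd1-3 and 7.70 ± 1.62 FPKM in Col-0 (SD, n = 3 each), a log2 fold change of 0.60 (SE 0.15, 95% interval 0.26 to 0.93) with an adjusted p of 0.035 in limma over all tested genes. Behind these levels stand 81 cnd1-3 reads and 64 Col-0 reads, whose shares have a ratio of 1.5 with a 95% counting interval of 1.07 to 2.12. The call did not hold under several settings: the adjusted p was 0.206 with limma's voom on recovered reads, 0.0677 with no minimum level and 0.0607 without an intensity trend. It was also lost without cnd1-3 replicate 1, 2 or 3 (0.0603, 0.0923 and 0.0979) and without Col-0 replicate 2 (0.075).

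psbT lies in the psbB cluster, in the order psbB, psbT, psbH, petB and petD on the plus strand, with psbN (ATCG00700) on the opposite strand between psbT and psbH. The coding sequences of psbT and psbN (TAIR10.1 chloroplast, positions 74082 to 74183 on the plus strand and 74249 to 74380 on the minus strand) are shown because the only called gene and its antisense neighbour lie side by side. Capitals in psbT mark its run of at least 5 A, and capitals in psbN its first codon.
psbT: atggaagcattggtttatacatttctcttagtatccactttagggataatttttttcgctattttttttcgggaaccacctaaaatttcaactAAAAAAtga
psbN: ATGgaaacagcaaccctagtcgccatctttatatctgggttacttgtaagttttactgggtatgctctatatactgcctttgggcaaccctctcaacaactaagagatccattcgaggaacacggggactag
psbT has 102 bases and psbN 132, both shorter than the sequenced reads of 150 bases, and 65 bases separate their ends. psbB ends 184 bases before psbT starts. The strandedness of the libraries is not given in the sources used here, so reads from psbN and from RNA of the psbB cluster that runs across it cannot be told apart.

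No other gene of the cluster passed the test. psbB (ATCG00680), which encodes the inner antenna protein CP47 of photosystem II, had 17.3, 17 and 16.9 FPKM in cnd1-3, against 23.1, 19.5 and 14.1 FPKM in Col-0. The cnd1-3 values lay close together and inside the wide Col-0 range, and the log2 fold change was -0.12 (SE 0.15, adjusted p = 0.658 in limma). As a ratio to psbB in the same library, psbT stood at 0.611, 0.703 and 0.756 in cnd1-3 and at 0.391, 0.420 and 0.418 in Col-0. These ratios did not overlap between the genotypes. They rest on 24, 27 and 30 reads of psbT in cnd1-3 and 28, 22 and 14 in Col-0, so each ratio is uncertain. psbN had 5.10, 4.11 and 7.22 FPKM in cnd1-3, against 5.72, 4.03 and 2.60 FPKM in Col-0 (log2 fold change 0.40, SE 0.26, adjusted p = 0.354 in limma), and its ratio to psbB overlapped. psbH (ATCG00710), a small phosphorylated subunit, had 4.04, 3.66 and 3.32 FPKM in cnd1-3, against 4.29, 2.74 and 5.61 FPKM in Col-0. Its genotypes overlapped, as did those of petB and petD at the end of the cluster.

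**Figure D1:**
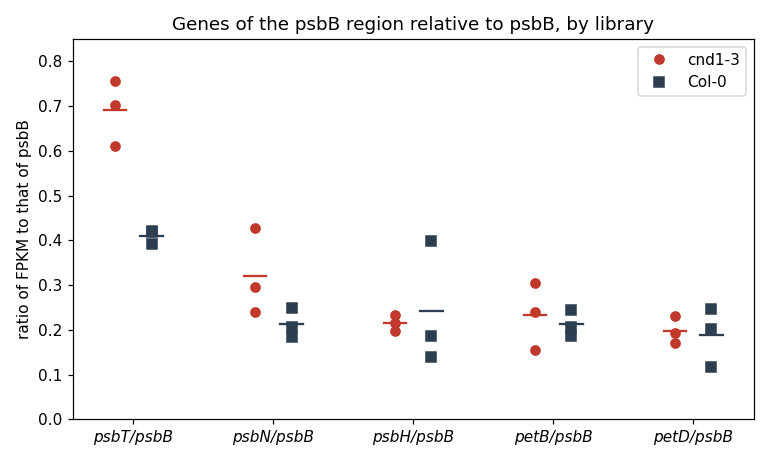
Ratio of the FPKM of psbT, psbN, psbH, petB and petD to that of psbB (vertical axis, linear, from 0) in each library, with a short bar at the mean of 3 libraries (red circles, cnd1-3; dark squares, Col-0). The psbT ratios of cnd1-3 (0.611 to 0.756) lie above those of Col-0 (0.391 to 0.420), and the other 4 ratios overlap between the genotypes.

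The remaining photosystem II genes split in direction, and none passed the test. psbA (ATCG00020) encodes the D1 reaction centre protein, which is damaged by light and replaced quickly. It had 20.9, 21.3 and 24.4 FPKM in cnd1-3, against 29.1, 26.1 and 23.7 FPKM in Col-0, with an overlap through cnd1-3 replicate 3 and Col-0 replicate 3 (log2 fold change -0.24, SE 0.10, adjusted p = 0.141 in limma). Stretches covering 47.6% of psbA have copies of at least 95% identity in the nuclear or mitochondrial genome, so its reads are less certain. psbD (ATCG00270) encodes D2, the partner of D1, and had 5.74, 5.53 and 4.85 FPKM in cnd1-3, against 5.87, 6.80 and 5.62 FPKM in Col-0. psbC (ATCG00280), which encodes the inner antenna protein CP43, had 2.68, 2.77 and 3.05 FPKM in cnd1-3, against 3.51, 4.30 and 3.59 FPKM in Col-0. All cnd1-3 values of psbC lay below all Col-0 values, while its adjusted p was 0.069 (log2 fold change -0.37, SE 0.11, limma).

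As annotated, psbD and psbC share bases on the same strand, where the end of psbD contains the annotated start of psbC. The shared stretch (TAIR10.1 chloroplast, 33720 to 33772, plus strand, 53 bases) is printed because reads within it belong to both genes and their assignment is uncertain. Capitals mark the first codon of psbC as annotated, and the start used in the plant was not tested.
psbD and psbC overlap: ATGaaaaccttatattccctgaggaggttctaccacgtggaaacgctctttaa
Downstream of psbC lies psbZ (ATCG00300), a small subunit at the edge of the complex. Its level was 2.37, 3.35 and 3.21 FPKM in cnd1-3, against 1.22, 2.82 and 1.14 FPKM in Col-0. Col-0 replicate 2 lay within the cnd1-3 range and the other Col-0 libraries below it. The log2 fold change of 0.71 (SE 0.26) was the largest above 0 among the 36 genes tested and missed the threshold at an adjusted p of 0.115 in limma. Its 38 reads in cnd1-3 and 26 in Col-0 gave a ratio of read shares of 1.73, with a counting interval of 1.03 to 2.97. Without Col-0 replicate 2 the log2 fold change was 1.04 and the adjusted p 0.0155 in limma. Leaving out any other library gave an adjusted p of 0.144 to 0.261. The psbZ coding sequence (35751 to 35939, plus strand) is shown beside that of psbT, as the gene with the largest fold above 0, with its run of at least 5 A in capitals.
psbZ: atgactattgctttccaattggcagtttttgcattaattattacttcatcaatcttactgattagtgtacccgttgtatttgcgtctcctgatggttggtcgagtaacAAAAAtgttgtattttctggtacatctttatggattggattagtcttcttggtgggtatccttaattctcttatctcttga

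The short genes psbK (ATCG00070) and psbI (ATCG00080) form a cluster of their own and encode small subunits bound near the reaction centre. psbK had 45.6, 42.0 and 42.6 FPKM in cnd1-3, against 41.0, 39.6 and 36.0 FPKM in Col-0. It was the only gene besides psbT whose cnd1-3 values all lay above the Col-0 values, by a small margin (log2 fold change 0.16, SE 0.07, adjusted p = 0.194 in limma). psbI had 76.3, 68.8 and 62.4 FPKM in cnd1-3, against 76.6, 61 and 56.5 FPKM in Col-0, with wide overlap.

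The psbE cluster encodes the cytochrome b subunits of photosystem II (psbE, ATCG00580, and psbF, ATCG00570) and the small subunits psbL (ATCG00560) and psbJ (ATCG00550). All 4 fold changes were below 0, from -0.44 for psbF to -0.27 for psbE on the log2 scale, with a median of -0.31, and no gene passed. psbJ showed how uneven the Col-0 libraries were: 10.2, 9.92 and 9.51 FPKM in cnd1-3 lay between 16.6 and 16.7 FPKM in Col-0 replicates 1 and 2 and 6.63 FPKM in Col-0 replicate 3. In limma this gave a log2 fold change of -0.30 (SE 0.29, adjusted p = 0.544), with an adjusted p of 0.00294 without Col-0 replicate 3. Leaving out any other library gave an adjusted p of 0.627 to 0.898. psbL had 3.45, 1.16 and 3.33 FPKM in cnd1-3, against 4.49, 5.52 and 1.1 FPKM in Col-0. psbF had 1.49, 1.88 and 1.08 FPKM in cnd1-3, against 2.74, 2.53 and 1.43 FPKM in Col-0, and psbE had 7.12, 5.92 and 4.30 FPKM in cnd1-3, against 4.95, 9.20 and 7.33 FPKM in Col-0. In each of these 4 genes the genotypes overlapped.

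All 4 listed photosystem I genes had fold changes below 0, with a median log2 fold change of -0.45, and none passed. psaA (ATCG00350) and psaB (ATCG00340) encode the large paired proteins that carry the reaction centre. psaA varied little within a genotype: 2.47, 2.39 and 2.50 FPKM in cnd1-3, against 3.38, 3.42 and 3.09 FPKM in Col-0. The genotypes were well apart, with means of 2.45 ± 0.058 FPKM in cnd1-3 and 3.30 ± 0.183 FPKM in Col-0 (SD, n = 3 each). Its log2 fold change of -0.36 (SE 0.10) had an adjusted p of 0.0508 in limma, just short of the call at 0.05. The adjusted p in limma was 0.0293 without an intensity trend and 0.0471 with voom. No other setting called psaA, with an adjusted p of 0.085 for no minimum level and 0.0631 for median-ratio scaling. Leaving out 1 library gave 0.0601 to 0.133. psaB, its neighbour on the same transcript, had 2.32, 1.95 and 2.50 FPKM in cnd1-3, against 1.91, 3.53 and 2.38 FPKM in Col-0, with full overlap (log2 fold change -0.14, SE 0.19). psaC (ATCG01060), the iron-sulfur protein on the stromal side, had 1.46, 1.47 and 2.11 FPKM in cnd1-3, against 2.67, 4.17 and 1.57 FPKM in Col-0. psaI (ATCG00510), a small peripheral subunit, had 3.93, 1.19 and 3.42 FPKM in cnd1-3, against 5.18, 4 and 3.39 FPKM in Col-0. In both, single libraries made the genotypes overlap. The log2 fold change was -0.54 (SE 0.27) for psaC on 84 reads and -0.59 (SE 0.33) for psaI on 61 reads. Leaving out 1 library gave -0.83 to -0.25 for psaC and -0.85 to -0.15 for psaI, so the median of this complex rests partly on few reads.

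The listed cytochrome b6f genes, whose complex passes electrons between the photosystems, had a median log2 fold change of -0.02, or 0.03 with median-ratio scaling. petA (ATCG00540) encodes cytochrome f and had 3.40, 2.96 and 3.15 FPKM in cnd1-3, against 3.58, 4.74 and 4.68 FPKM in Col-0. Its genotypes did not overlap and its adjusted p was 0.0763 (log2 fold change -0.39, SE 0.12, limma), or 0.0339 without Col-0 replicate 1. Leaving out any other library gave an adjusted p of 0.131 to 0.201 in limma. petB (ATCG00720), cytochrome b6, had 4.15, 2.65 and 5.15 FPKM in cnd1-3, against 4.76, 3.64 and 3.45 FPKM in Col-0, and petD (ATCG00730), subunit IV, had 3.34, 3.93 and 2.87 FPKM in cnd1-3, against 2.72, 4.80 and 2.84 FPKM in Col-0. Both had mixed libraries and log2 fold changes of -0.02 and 0.00.

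ATP synthase genes supplied the largest part of the reads of the 38 genes. In the main cluster atpI (ATCG00150), atpH (ATCG00140) and atpF (ATCG00130) encode the membrane part, with the proton channel, the rotating ring and the stalk, and atpA (ATCG00120) encodes the alpha subunit of the catalytic head. atpH had 18.8, 22.4 and 21.1 FPKM in cnd1-3, against 29.6, 28.6 and 22.7 FPKM in Col-0 (log2 fold change -0.36, SE 0.11, adjusted p = 0.0727 in limma). atpF had 4.85, 4.89 and 3.83 FPKM in cnd1-3, against 6.69, 5.68 and 5.34 FPKM in Col-0 (log2 fold change -0.35, SE 0.12, adjusted p = 0.0984 in limma). In both genes all cnd1-3 values lay below all Col-0 values. atpI had 4.60, 4.16 and 4.04 FPKM in cnd1-3, against 6.87, 7.96 and 4.47 FPKM in Col-0, where Col-0 replicate 3 lay within the cnd1-3 range (log2 fold change -0.51, SE 0.18, adjusted p = 0.103 in limma). Without Col-0 replicate 3 the adjusted p in limma was 0.0082 for atpI and 0.0174 for atpH. Leaving out any other library gave 0.17 to 0.274 for atpI and 0.0962 to 0.211 for atpH. A nuclear copy covers 100% of atpI at up to 98.5% identity, so the origin of its reads is uncertain. atpA, the last gene of the cluster, had 10.3, 10.9 and 9.24 FPKM in cnd1-3, against 9.82, 10.5 and 9.21 FPKM in Col-0 (log2 fold change 0.04, SE 0.09). The ratio of atpA to atpI was 2.23, 2.63 and 2.28 in cnd1-3 and 1.43, 1.32 and 2.06 in Col-0, without overlap.

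The other ATP synthase cluster holds atpB (ATCG00480) and atpE (ATCG00470), the beta and epsilon subunits of the head. atpB had 37.0, 38.2 and 39.5 FPKM in cnd1-3, against 41.1, 44.2 and 44.6 FPKM in Col-0. The difference was small, but no library overlapped (log2 fold change -0.18, SE 0.07, adjusted p = 0.119 in limma), and with 3867 reads in cnd1-3 and 5167 in Col-0 the ratio of read shares was 0.887, with a counting interval of 0.851 to 0.925. atpE, which overlaps the end of atpB by 4 bases, had 66.9, 68.6 and 59.6 FPKM in cnd1-3, against 94.8, 74.8 and 62.6 FPKM in Col-0, with overlap. atpB also holds the longest run of A among the 38 genes, 10 bases. It is printed with its surroundings (TAIR10.1 chloroplast, 54086 to 54125, minus strand, run in capitals) because the RNA was selected with oligo-dT. The part of such runs in the levels was not tested.
atpB A run: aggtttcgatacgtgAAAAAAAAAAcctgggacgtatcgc

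The NDH complex feeds electrons back into the membrane around photosystem I, and its genes included the lowest levels of the set. All 8 tested genes had fold changes below 0, with a median log2 fold change of -0.31, and none passed. In the ndhC cluster, ndhJ (ATCG00420) and ndhK (ATCG00430) encode subunits of the arm that reaches into the stroma and ndhC (ATCG00440) a membrane subunit. ndhJ had 4.32, 3.32 and 5.09 FPKM in cnd1-3, against 5.78, 6.06 and 5.22 FPKM in Col-0, without overlap (log2 fold change -0.40, SE 0.14, adjusted p = 0.104 in limma). ndhK had 5.09, 4 and 5.43 FPKM in cnd1-3, against 7.51, 6.33 and 5 FPKM in Col-0, and ndhC had 3.09, 2.49 and 3.22 FPKM in cnd1-3, against 2.80, 3.46 and 4.49 FPKM in Col-0. Both of these overlapped.

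The long ndhH cluster, in the order ndhH, ndhA, ndhI, ndhG, ndhE, psaC and ndhD, was close to the limit of what these libraries could measure. ndhH (ATCG01110), a subunit of the stromal arm, had 0.0759, 0.268 and 0.293 FPKM in cnd1-3, against 0.25, 0.611 and 0.581 FPKM in Col-0. ndhI (ATCG01090), an iron-sulfur subunit of the same arm, had 0.778, 0.610 and 0.584 FPKM in cnd1-3, against 0.569, 1.54 and 0.745 FPKM in Col-0. Both overlapped between the genotypes. Among the membrane subunits, ndhG (ATCG01080) had 0.591, 0.511 and 0.816 FPKM in cnd1-3, against 0.928, 1.36 and 1.13 FPKM in Col-0, the only one of the cluster without overlap among those tested (log2 fold change -0.53, SE 0.18, adjusted p = 0.0959 in limma). ndhE (ATCG01070) had the lowest fold change of the set, -0.81 (SE 0.49, adjusted p = 0.311 in limma), resting on 6 reads in cnd1-3 and 24 in Col-0, with 0.293, 0.591 and 0 FPKM in cnd1-3, against 0.107, 1.86 and 1.12 FPKM in Col-0. ndhA (ATCG01100) had 1.20, 0.876 and 1.64 FPKM in cnd1-3, against 1.24, 1.86 and 1.39 FPKM in Col-0. ndhF (ATCG01010), a membrane subunit at the far end of the arm with a transcript of its own, had 0.340, 0.444 and 0.406 FPKM in cnd1-3, against 0.659, 0.695 and 0.364 FPKM in Col-0. ndhF and ndhH averaged below 0.5 FPKM and were not tested. With no minimum level their log2 fold changes were -0.25 (SE 0.14, adjusted p = 0.364 in limma) and -0.45 (SE 0.19, adjusted p = 0.208 in limma).

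ndhD (ATCG01050) closes that cluster and had 0.649, 0.713 and 0.798 FPKM in cnd1-3, against 0.475, 0.85 and 0.932 FPKM in Col-0, with cnd1-3 inside the Col-0 range (log2 fold change -0.02, SE 0.20). It is the 1 gene of the 38 whose genomic first codon is not ATG. Its first 30 bases (TAIR10.1 chloroplast, 117138 to 117167, minus strand) are printed with that codon in capitals, which RNA editing turns into a start codon in Arabidopsis.
ndhD start: ACGaatgattttccttggttaacaataatt
The ratio of ndhD to ndhH was 8.55, 2.66 and 2.72 in cnd1-3 and 1.90, 1.39 and 1.60 in Col-0, without overlap, and it rests on 17 reads of ndhH in cnd1-3 and 44 in Col-0. Editing itself cannot be read from gene totals.

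rbcL (ATCG00490), which encodes the large subunit of the carbon-fixing enzyme Rubisco, had 14.4, 14.0 and 15.4 FPKM in cnd1-3, against 14.7, 17.4 and 15.8 FPKM in Col-0. The genotypes overlapped and the log2 fold change was -0.12 (SE 0.08, adjusted p = 0.368 in limma). Copies of at least 95% identity elsewhere in the genome cover 44.7% of rbcL.

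**Figure D2:**
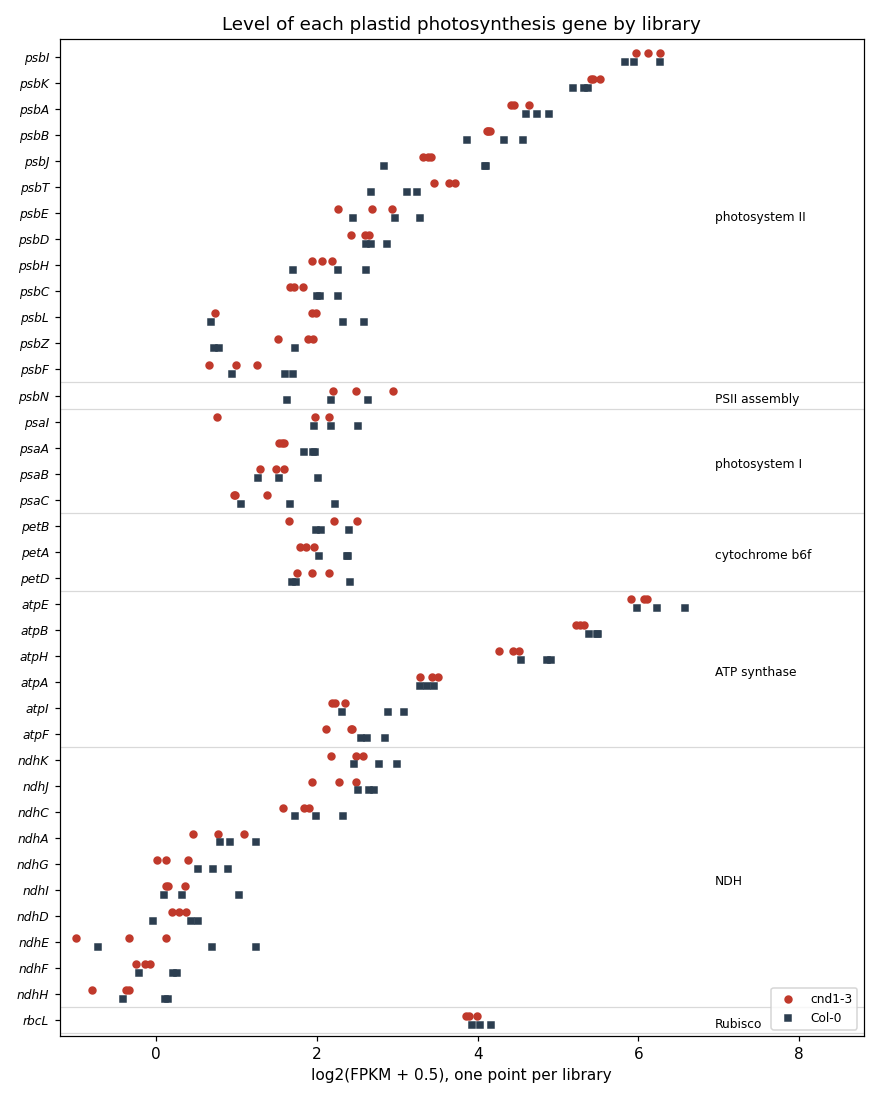
Level of each of the 38 genes as log2(FPKM + 0.5) (horizontal axis), one point per library, grouped by complex and ordered within it by mean level (red circles, cnd1-3; dark squares, Col-0). The ATP synthase genes atpE and atpB and the photosystem II genes psbI and psbK are the highest, most NDH genes are the lowest, and for most genes the libraries of both genotypes are interleaved.

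Levels spanned a wide range that the genotypes shared. Over the 6 libraries atpE averaged 71.2 FPKM, psbI 66.9, psbK 41.1, atpB 40.8, psbA 24.3 and atpH 23.9, and these 6 were the ones above 20 FPKM. The median of the 38 genes was 3.96 FPKM and 6 genes were below 1 FPKM. Genes of the same cluster did not have the same level: psbJ was 6.24-fold above psbF, psaC 6.47-fold above ndhH, psbB 5.26-fold above petD and atpH 4.59-fold above atpF. cemA, an envelope protein gene that lies between ycf4 and petA, averaged 49.9 FPKM, while petA averaged 3.75 FPKM and ycf4, a photosystem I assembly factor gene, 1.49 FPKM. Over the 38 genes the log10 of the mean FPKM had a Pearson correlation of 0.39 with GC content, -0.18 with coding length and -0.15 with the longest run of A (Spearman 0.42, -0.15 and -0.17). These describe genes that share libraries and base composition. Of the 38 genes 8 are as short as psbK or shorter, which makes their FPKM sensitive to how reads longer than the gene were assigned.

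By complex, recovered reads were scaled to the depth of each library (RPM). The sums were lower in cnd1-3, without overlap, for the ATP synthase, NDH, photosystem I and cytochrome b6f genes. No such share over sums of other genes was computed, and 21.5% of all tested genes lay lower without overlap. A few genes carried most of 2 sums: atpB and atpE took 82.1, 84.6 and 82.9 RPM in cnd1-3, against 99.3, 96 and 91.7 in Col-0. psaA and psaB took 10.7, 9.67 and 11.1 in cnd1-3, against 11.8, 15.5 and 12.2 in Col-0. For cytochrome b6f the nearest values were 7.76 in cnd1-3 and 7.85 in Col-0. ATP synthase genes took 109, 113 and 107 RPM in cnd1-3, against 130.5, 128 and 118 in Col-0. NDH genes took 10.6, 9.31 and 12.3 in cnd1-3, against 13.5, 16.1 and 13.3 in Col-0, and photosystem I genes took 11.5, 10.2 and 12 in cnd1-3, against 13.1, 17 and 13 in Col-0. Photosystem II genes took 81.4, 79.6 and 81.4 in cnd1-3, against 99.7, 92.3 and 75.8 in Col-0. There Col-0 replicate 3 was the lowest of the 6 libraries. Cytochrome b6f genes took 7.58, 6.46 and 7.76 in cnd1-3, against 7.85, 9.24 and 8.12 in Col-0, and rbcL 20.7, 20.1 and 22.1 in cnd1-3, against 21.1, 25 and 22.8 in Col-0, with overlap. All 38 genes together took 241, 239 and 244 RPM in cnd1-3, against 287, 288 and 251 in Col-0, and without psbA and rbcL 198, 196 and 196 in cnd1-3, against 234, 236 and 203 in Col-0. Summed as FPKM, which weighs short genes more, they reached at most 407 FPKM in cnd1-3 and lay between 378 and 476 FPKM in Col-0, with Col-0 replicate 3 below every cnd1-3 library. These sums overlapped, and the ratio of the group means was 0.913. Depth moved along: Col-0 replicate 3 had 23290031 reads assigned to genes, close to the cnd1-3 libraries, and the other Col-0 libraries 26309769 and 30455907. The part of depth in these differences was not tested.

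**Figure D3:**
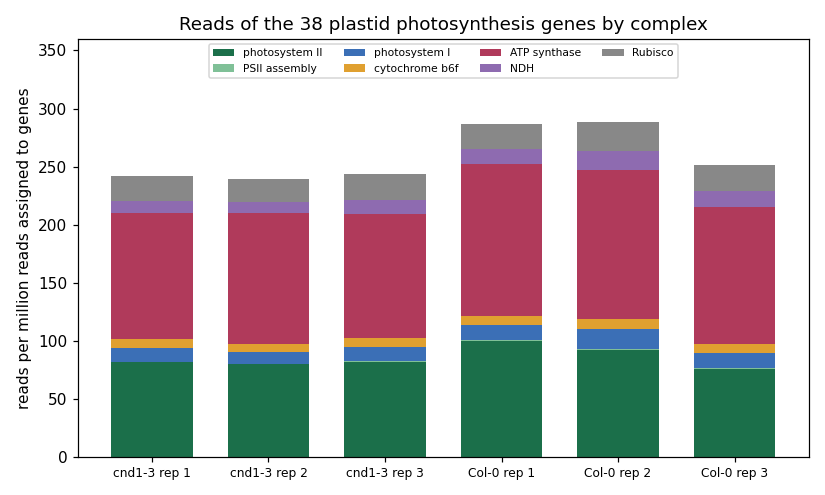
Recovered reads of the 38 genes scaled to library depth (RPM, vertical axis, from 0) in each library, stacked by complex, with the 3 cnd1-3 libraries left of the 3 Col-0 libraries. The cnd1-3 bars stand at 239 to 244 RPM and the Col-0 bars at 251 to 288, with Col-0 replicate 3 nearest to cnd1-3.

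Counted over the set, the calls did not exceed the background. At an unadjusted p under 0.05 the set had 12 of 36 genes, against 28.6% of all genes in either direction, so the share of the set was near the background. Genotypes did not overlap in 2 genes higher in cnd1-3 (psbK and psbT), against a background of 12.3%, and in 8 genes lower in cnd1-3 (psbC, psaA, petA, atpF, atpH, atpB, ndhJ and ndhG), against 21.5%. With voom on recovered reads 0 were called higher, against 4.08% of all genes, and 1 lower (psaA), against 8.5%. Fold changes were above 0 in 7 genes and below 0 in 29, while 40.1% of all genes lay above and 59.9% below. The median log2 fold change was -0.24 for the set and -0.05 for all tested genes. Leaving out a Col-0 library moved this median furthest among the settings tried: without Col-0 replicate 2 the set's median was -0.09, with 24 of 35 genes below 0, and without Col-0 replicate 3 it was -0.31. Col-0 replicate 2 had the highest value of the 6 libraries in 19 of the 38 genes. The other rows with plastid locus names had a like median, -0.26 over 55 tested rows. Of these 6 were called lower, against 7.59% of all tested genes, and 0 higher, against 3.5%.

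**Figure D4:**
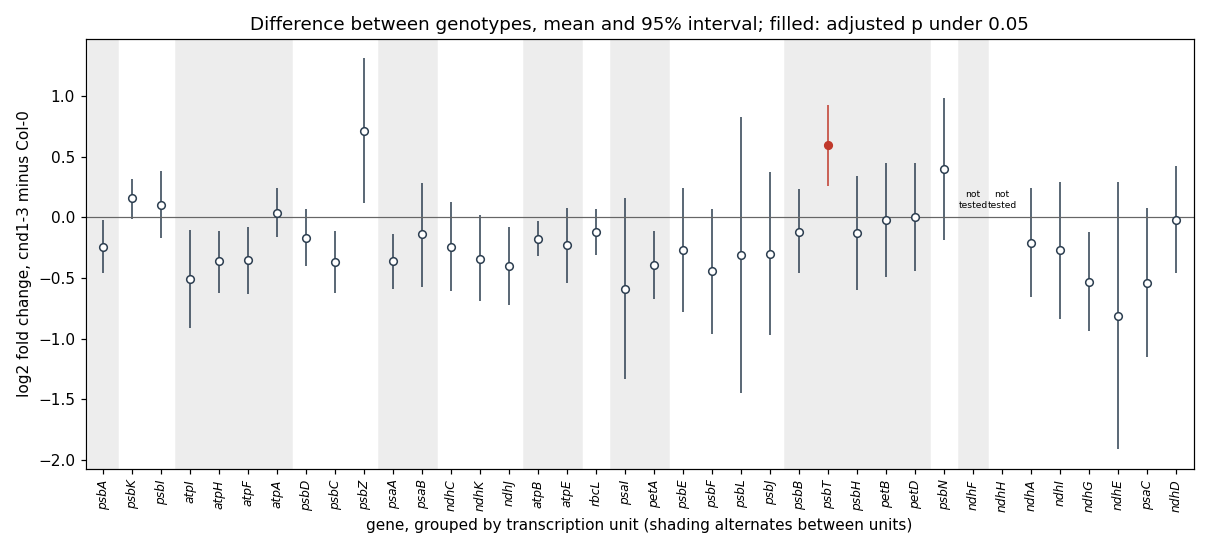
log2 fold change of cnd1-3 minus Col-0 for each gene (vertical axis) with its 95% interval from limma, grouped by transcription unit with alternating shading. psbT is the called gene at 0.60, 29 of 36 points lie below 0, and ndhF and ndhH are marked as not tested.

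By transcription unit, the median log2 fold changes were -0.49 for psaI and petA, -0.40 for the ndhH cluster, -0.36 for the atpI cluster, -0.34 for the ndhC cluster, -0.31 for the psbE cluster, -0.25 for psaA and psaB, -0.20 for atpB and atpE and -0.17 for the psbD cluster. The psbB cluster was at -0.02, or 0.03 with median-ratio scaling, and psbK and psbI at 0.13. Within clusters, 25 ratios of a gene to another gene of its cluster were set side by side, and in 3 the genotypes did not overlap (psbT to psbB, atpA to atpI and ndhD to ndhH, each higher in cnd1-3). These ratios are a description: no ratio was tested, and no such share over other gene pairs was computed to read the count against. Neighbours in these clusters that serve other functions lay between. cemA had 48.5, 51.5 and 44.8 FPKM in cnd1-3, against 61.8, 49.7 and 42.9 FPKM in Col-0 (log2 fold change -0.08), and ycf4 was at -0.03. The ribosomal protein genes rps14, next to psaB, and rps2, next to atpI, were at -0.18 and -0.28 on the log2 scale, and accD, a subunit of the fatty acid synthesis enzyme acetyl-CoA carboxylase, was too low to test. None of the 4 tested neighbours passed.

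The nuclear genes for subunits of the same complexes, a list of 40, lay mostly above 0. Their log2 fold changes were above 0 in 37 and below 0 in 3, with a median of 0.10 and a range of -0.11 to 0.31, and 0 passed the test in either direction. At an unadjusted p under 0.05 there were 7 of 40, or 17.5%, below the 28.6% of all genes. In 14 of them all cnd1-3 values lay above all Col-0 values, against 12.3% of all genes, and in 1 they lay below, against 21.5%. RBCS1A, a small subunit of Rubisco and the most abundant of them, averaged 22960 ± 736 FPKM in cnd1-3 and 21014 ± 2027 FPKM in Col-0 (SD, n = 3 each; log2 fold change 0.13, adjusted p = 0.45 in limma). RBCS3B, of the same gene family, averaged 7425 ± 458 FPKM in cnd1-3 and 6284 ± 317 FPKM in Col-0 (log2 fold change 0.24, adjusted p = 0.114 in limma). Members of this family are nearly identical and reads may be split between them. Medians of the plastid and the nuclear genes were -0.17 and 0.09 for photosystem II, -0.45 and 0.10 for photosystem I, -0.02 (0.03 with median-ratio scaling) and 0.18 for cytochrome b6f, -0.29 and 0.13 for the ATP synthase, -0.31 and 0.09 for NDH and -0.12 and 0.13 for Rubisco. With median-ratio scaling all genes moved up by about the same amount, to a median of 0.00, and the plastid set was at -0.18 and the nuclear list at 0.16. The difference between the plastid and the nuclear list was not tested.

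**Figure D5:**
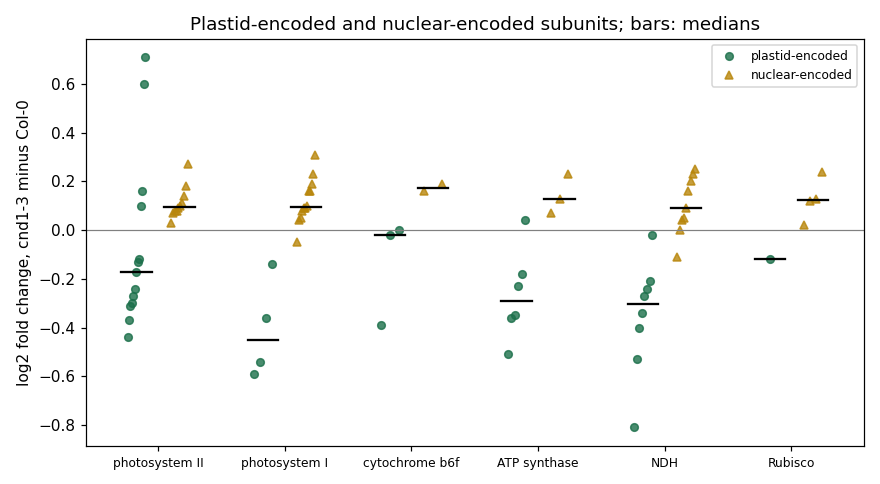
log2 fold change of cnd1-3 minus Col-0 (vertical axis) of the tested plastid-encoded subunits and the nuclear-encoded subunits of each complex, one point per gene, with a black bar at the median. Nuclear medians lie between 0.09 and 0.18, and plastid medians between -0.45 and -0.02, of which that of cytochrome b6f is at 0.03 with median-ratio scaling.

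Genes for enzymes that process or degrade plastid RNA were set beside these values, since they act on the transcripts measured. None of the 6 passed (0 at an unadjusted p under 0.05 in limma), with a median log2 fold change of 0.02. PNP, the polynucleotide phosphorylase that trims and tails plastid RNA, averaged 31.4 ± 3.78 FPKM in cnd1-3 and 33.5 ± 2.78 FPKM in Col-0 (SD, n = 3 each). The exonuclease gene RNR1 averaged 16.9 FPKM in cnd1-3 and 16.4 FPKM in Col-0, the endonuclease gene RNE 16.7 FPKM in cnd1-3 and 16.8 FPKM in Col-0, and RNJ 30 FPKM in cnd1-3 and 30.4 FPKM in Col-0. The RNA-binding proteins CSP41A and CSP41B averaged 647 and 927 ± 21.4 FPKM in cnd1-3, against 610.1 and 833 ± 47.3 FPKM in Col-0, and for CSP41B alone the genotypes did not overlap (log2 fold change 0.15, adjusted p = 0.182 in limma).

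Read number limits these comparisons. Of the 38 genes 10 had fewer than 100 reads over all 6 libraries, and the counting error of the log2 fold change alone ranged from 0.0307 for atpB to 0.658 for ndhE. The median SE in limma was 0.17 over the 36 tested genes, against 0.104 over all tested genes. For 17 of the 36 genes the limma SE was at or below the SE from read numbers alone, whose median was 0.152. psbT was among them, with 0.15 in limma and 0.241 from read numbers. These SEs are on different scales: that of limma is for log2 FPKM with a constant added, which shrinks differences between low values. The SE from read numbers has no such constant. For low genes, a limma SE at or below it therefore does not show a spread within counting error. psbT was little affected: its log2 fold change was 0.62 with a constant of 0.1, against 0.60 in the main test. The p-value of psbT rests on a spread no larger than counting error alone gives. Intervals from read numbers cover counting error only.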

How the data were processed

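RNA-seq libraries of 3 cnd1-3 and 3 Col-0 seedling samples were used, grouped by title. The labels' protocol selects mRNA on oligo-dT beads and reads pairs of 150 bases. The authors deposited 1 table of FPKM per gene. Per the submitters' processing notes, TAIR10, HISAT2, Subread, featureCounts and DESeq2 were used, with roles, settings and versions not given in the sources used here. FPKM was tested as log2(FPKM + 0.5) with limma 3.58.1 (R 4.3.3; lmFit, eBayes with trend) for 17096 genes with a mean of at least 0.5 FPKM, with Benjamini-Hochberg adjustment over all of them and a threshold of 0.05. Fold changes are cnd1-3 minus Col-0 on this scale and understate the change of low genes.

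Whole reads were recovered from FPKM times exon length for 99.34% to 99.37% of values per library (tolerance 0.01 reads), over 32451 genes. They gave depths, counting intervals (95%, exact binomial) and a voom test as an alternative, with 685 genes called higher and 1428 lower. Plastid symbols were paired with loci by standard locus names, and 37 of 38 genes gave whole reads at the length annotated in TAIR10.1, from which RefSeq sequences and coordinates were read. ndhD gave whole reads at 18 bases more. Copies of at least 95% identity were found with BLAST 2.17. Python 3.11.15, numpy 2.4.6, pandas 2.3.3, scipy 1.17.1 and matplotlib 3.10.9 were used.

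Genes named are all 38, the 5 cluster neighbours, 6 ribonuclease genes, and of the nuclear list up to 4 called genes, or, as happened here, the 2 most abundant. The genes and lists were chosen with earlier results of these data known. On simulated data of 16729 genes limma found, out of 50 genes each, 98% after a 2-fold increase and 86% after a 2-fold decrease. It found 100% after a 4-fold change in either direction, and 0.109% of 16529 unchanged genes. The changed genes were drawn from those expected at 100 reads or more per library, with the same spread beyond counting error set for all genes. Of the 38 genes 10 had fewer than 100 reads over all libraries, so these shares do not give the power for this set. Alternatives were pseudocounts of 0.1 and 1, no minimum, a minimum of 2 FPKM, median-ratio scaling, rescaling to nuclear genes, no trend, the replicate number as a block, voom, and leaving out each library.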

Additional observations from a re-analysis of the deposited data

How the results depend on the processing

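Over all 17096 genes 598 were called higher and 1298 lower. Median-ratio scaling gave 942 higher, and the share of calls that were lower moved to 54.3% from 68.5%. Leaving out 1 library gave 259 to 546 higher and 611 to 1291 lower. Genes of the plastid set called higher numbered 0 with no minimum, without trend and with voom, and 0 to 1 when a library was left out. Those called lower numbered 1 without trend, 1 with voom, and 0 to 4 when a library was left out, the 4 being psaC, psbJ, atpI and atpH without Col-0 replicate 3 (adjusted p = 0.0446, 0.00294, 0.0082 and 0.0174 in limma). Nuclear subunit genes called higher numbered 1 at a minimum of 2 FPKM, 2 with voom, and 0 to 3 when a library was left out. No nuclear subunit gene was called lower and no ribonuclease gene was called under any of these settings.

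Same-numbered libraries had correlations of their deviations of 0.03, 0.16 and 0.26, and differently numbered ones -0.24 to 0.08. Only cnd1-3 replicate 1 correlated better with another number, at 0.08 with Col-0 replicate 2 against 0.03. Every other library correlated best with its own number. Whether the numbers pair the samples was not settled. With the replicate number as a block 2 genes of the set were called higher (psbT and psbZ), 1 lower (atpF) and 3 nuclear subunit genes higher, with 1020 higher and 1859 lower over all genes.

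Changes of sign came in genes with log2 fold changes between -0.31 and 0.04, and their cause was not tested. With median-ratio scaling the log2 fold change was 0.02 for ycf4, 0.03 for petB and 0.01 for ndhD. It was 0.03 for ndhD with voom and 0.00 for petD with a pseudocount of 1. Leaving out 1 library, the range was -0.01 to 0.10 for atpA, -0.31 to 0.06 for psaB, -0.17 to 0.09 for ycf4, -0.20 to 0.06 for cemA, -0.90 to 0.10 for psbL, -0.31 to 0.04 for psbB, -0.38 to 0.08 for psbH, -0.20 to 0.22 for petB, -0.13 to 0.23 for petD, -0.19 to 0.09 for ndhD and -0.46 to 0.00 for ndhI. The medians by complex and by cluster were recomputed with a minimum of 2 FPKM, median-ratio scaling and rescaling to nuclear genes, and not when a library was left out. With median-ratio scaling the medians of the cytochrome b6f genes and of the psbB cluster were both 0.03, against -0.02 without it, and the others kept their sign. The ratio of summed FPKM was 0.917 without psbA and rbcL. Where a library was left out of a genotype, 2 libraries remained there.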
